A study of Homo sapiens with 12 samples.

Results

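The genes described here are MYC, its neighbouring noncoding gene PVT1, the paralogs MYCN and MYCL, their partner MAX, and the MAX-binding repressor genes MXD1, MXD3, MXD4, MXI1 and MNT, taken by symbol from the expression tables. All 10 were found among 58083 gene entries. The series measured HEK 293T, a line derived from human embryonic kidney cells and expressing SV40 large T antigen, in 12 samples that formed 6 groups of 2. The RNA groups were cells given DMSO for 3 h and cells given 1 µM of PDP, a compound known here only by that code name, for 3 h, 24 h or 72 h. Genomic DNA labelled as annealed was also pulled down with a small molecule that captures G-quadruplexes, stacked structures that guanine-rich DNA can fold into, beside its input.

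MYC is a transcription factor that binds DNA as a heterodimer with MAX and drives genes of growth, ribosome assembly and proliferation. The MXD proteins, MXI1 and MNT also pair with MAX, bind the same E-box sites and recruit SIN3 and histone deacetylase corepressors, so they compete with MYC at its targets. PVT1 lies downstream of MYC and gives a long noncoding RNA, and a guanine-rich element of the MYC promoter is a textbook G-quadruplex.

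Each expression table gave 1 FPKM value (fragments per kilobase of transcript, scaled to the mapped total) per gene and condition, pooled over 2 libraries, so single libraries, their spread and their depth are unknown. In bulk RNA, fewer cells expressing a gene and less RNA per cell cannot be told apart. "Called" means a q-value under 0.05 in the authors' deposited table, and the SE of a log2 fold change is the one implied by the statistic in that table. This implied SE need not be the spread behind the deposited p-value. The control was the same DMSO 3 h group in all 3 tables: its values differed by a constant factor of 1.04 (24 h) and 0.968 (72 h) from the 3 h table. Changes at 24 h and 72 h therefore also hold any change over time in culture, which cannot be told apart from that of PDP, and the 3 comparisons share their control. The cell line's markers VIM, KRT8, KRT18, NEFL, NEFM and LHX1 ranged from 4.89 (LHX1) to 259 FPKM (VIM) in the control and PAX2 had 0.896 FPKM, while the leukocyte gene PTPRC and the endothelial gene PECAM1 had at most 0.00705 FPKM there, and the fibroblast gene COL1A1 had 12.6 FPKM. KRT8, NEFL, NEFM and PAX2 were called higher at 24 h and 72 h, and LHX1 and VIM at 72 h; their part in the results was not tested.

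Of the 10 genes, PVT1 alone was called at 3 h, 3 were called at 24 h (MYC, MYCL and MXI1, all higher) and 6 at 72 h (PVT1, MYCL, MYCN, MXD1 and MXI1 higher, MXD4 lower). MAX, MXD3 and MNT were called at no time. MYC itself rose at 24 h alone, whereas MYCL and MXI1 were higher at both later times. At 3 h 9 of the 10 were tested (not MYCN), and all 10 later. Of all tested genes, 0.108% were called higher and 0.00678% lower at 3 h. At 24 h these shares were 9.21% and 8.29%, and at 72 h 19% and 12.8%. The median log2 fold change of the 9 expressed members was -0.02, 0.51 and 0.95 at the 3 times, beside -0.0036, -0.03 and 0.11 over all expressed genes, so expressed genes as a whole stood slightly high at 72 h.

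**Figure D1:**
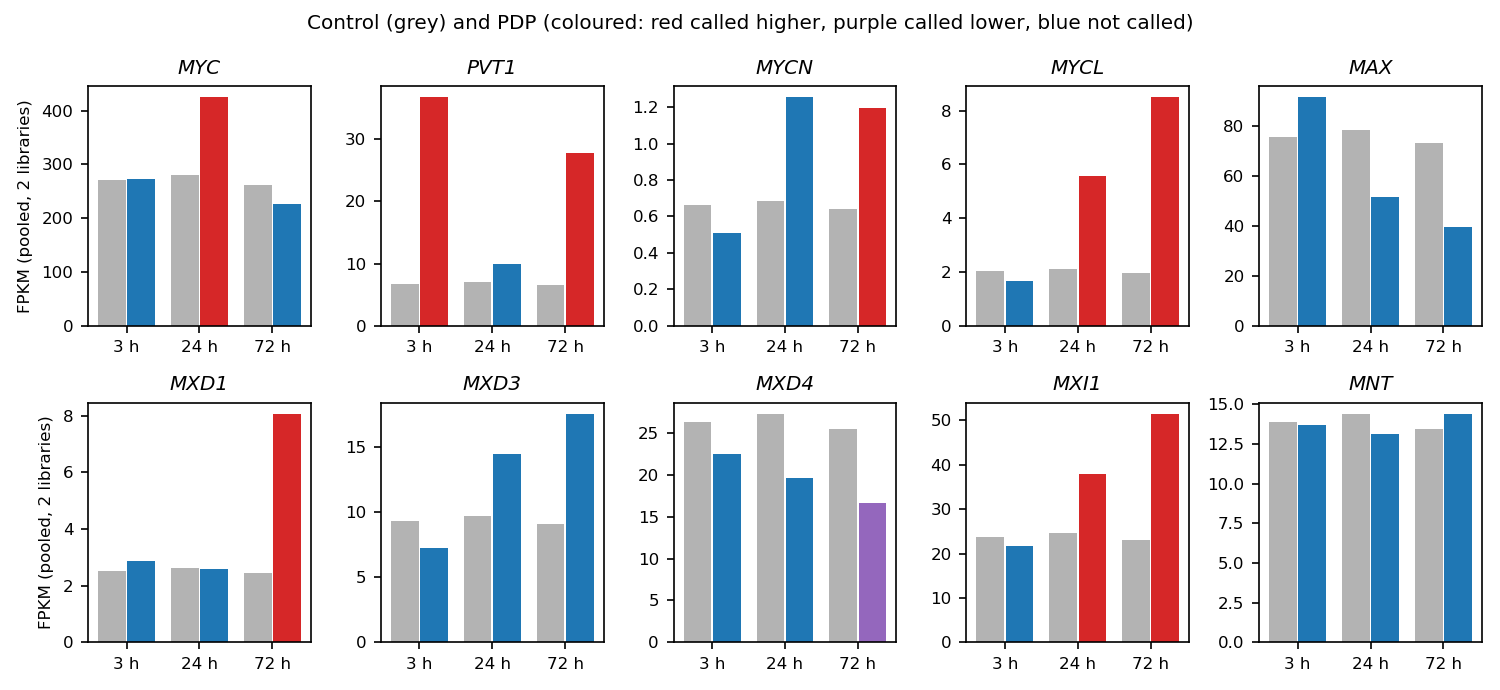
Pooled FPKM of the 10 genes (y axes differ, all from 0) in the DMSO 3 h control (grey) and with PDP (red called higher, purple called lower, blue not called) as given in the 3 h, 24 h and 72 h tables; there are no error bars because each bar is 1 pooled value. MYC was called higher at 24 h alone (425 against 281 FPKM), PVT1 at 3 h and 72 h (36.6 and 27.8 FPKM), and MXI1 and MYCL are highest at 72 h.

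The promoters of the network genes are shown first, because the pull-down was aimed at structures of guanine-rich DNA. RefSeq windows of 300 bases (250 before to 50 after an annotated start, GRCh38.p14) were matched for 8 of the 10 genes, 11 windows in all; MYC and PVT1 had no window. The windows were searched on both strands for the canonical G-quadruplex pattern, 4 runs of at least 3 guanines separated by 1 to 7 bases, and for the E-box CACGTG. The pattern was in 6 of the 11 windows, against 25% of all 35116 promoter windows. These were the windows of MYCL, MAX (both starts), MXD4 and MXI1 (2 of its 3 starts), so of 4 of the 8 matched genes. GC content was 63.3% to 75.3% in the windows with the pattern and 55% to 76% in the others. Its median over all promoter windows was 58.7%, and its part in the count was not tested. The E-box was in the windows of MXD4 and MNT, against 7.26% of all. The 5 windows below are printed 5′ to 3′ on the gene's strand, with the quadruplex pattern and the E-box in capitals; capitals that hold runs of C mark the pattern on the opposite strand.
MYCL, chr1:39901868-39902167 (minus strand): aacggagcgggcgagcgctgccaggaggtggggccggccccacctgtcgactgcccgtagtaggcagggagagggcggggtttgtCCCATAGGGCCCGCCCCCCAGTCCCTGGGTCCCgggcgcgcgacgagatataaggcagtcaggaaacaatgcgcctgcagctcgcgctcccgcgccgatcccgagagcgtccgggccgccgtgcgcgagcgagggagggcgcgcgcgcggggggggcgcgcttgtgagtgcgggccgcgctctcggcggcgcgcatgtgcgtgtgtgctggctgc
MXI1, chr10:110225746-110226045 (plus strand): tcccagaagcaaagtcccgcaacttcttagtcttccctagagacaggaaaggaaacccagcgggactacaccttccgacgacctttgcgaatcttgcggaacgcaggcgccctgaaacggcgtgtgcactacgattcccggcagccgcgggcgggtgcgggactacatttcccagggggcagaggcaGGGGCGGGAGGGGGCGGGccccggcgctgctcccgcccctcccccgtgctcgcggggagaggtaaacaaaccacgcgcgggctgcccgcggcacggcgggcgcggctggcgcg
MXD4, chr4:2262060-2262359 (minus strand): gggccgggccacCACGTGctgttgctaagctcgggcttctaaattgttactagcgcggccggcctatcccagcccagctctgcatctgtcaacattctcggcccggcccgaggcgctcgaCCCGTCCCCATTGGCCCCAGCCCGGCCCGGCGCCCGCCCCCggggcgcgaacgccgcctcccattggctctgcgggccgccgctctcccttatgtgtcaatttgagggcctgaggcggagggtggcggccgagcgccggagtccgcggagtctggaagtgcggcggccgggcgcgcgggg
MAX, chr14:65101635-65101934 (minus strand): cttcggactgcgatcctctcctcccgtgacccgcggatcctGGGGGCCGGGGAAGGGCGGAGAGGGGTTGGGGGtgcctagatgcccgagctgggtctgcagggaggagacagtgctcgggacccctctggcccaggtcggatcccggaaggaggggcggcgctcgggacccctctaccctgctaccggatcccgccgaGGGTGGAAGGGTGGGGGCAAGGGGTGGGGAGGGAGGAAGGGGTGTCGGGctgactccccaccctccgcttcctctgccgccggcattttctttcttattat
MNT, chr17:2401011-2401310 (minus strand): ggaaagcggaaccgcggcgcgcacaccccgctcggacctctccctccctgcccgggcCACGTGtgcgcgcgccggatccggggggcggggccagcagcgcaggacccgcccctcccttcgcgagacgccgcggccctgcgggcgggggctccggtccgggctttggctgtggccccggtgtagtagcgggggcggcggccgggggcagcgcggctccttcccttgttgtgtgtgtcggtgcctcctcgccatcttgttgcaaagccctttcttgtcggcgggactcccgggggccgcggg
In MYCL, which was called higher, the pattern is on the opposite strand, 33 bases long, and begins 165 bases before the start. MXI1, also called higher, carries it in this window on the gene's own strand as a stretch of 18 bases that begins 63 bases before this start. In another MXI1 window, not printed, it is on the opposite strand, 37 bases long, and begins 206 bases before that start. MXD4, the gene called lower, has both features without overlap: the E-box begins 238 bases and the pattern 130 bases before the start. The printed MAX window has 2 separate stretches on the gene's own strand, and the window of the other MAX start has the pattern on the opposite strand. The MNT window, of a gene not called, has an E-box and no quadruplex pattern. MXD1 and MYCN, called higher at 72 h, and MXD3 had neither feature in their windows. The pattern was thus present in the windows of some genes called higher (MYCL and MXI1) and absent from those of others (MXD1 and MYCN), and present in that of MXD4.

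MYC was among the most abundant transcripts, at percentile 98.0 of expressed genes in the control (expressed meaning a geometric mean of both conditions of at least 1 FPKM). At 3 h it had 271 FPKM with DMSO and 273 FPKM with PDP, a log2 fold change of 0.01 (SE 0.22). At 24 h it rose to 425 FPKM with PDP, against 281 FPKM in the control, or by 0.60 on the log2 scale (SE 0.22, q = 0.000908 in the authors' deposited table). At 72 h it had 227 against 262 FPKM, a log2 fold change of -0.21 (SE 0.21, q = 0.286 in the authors' deposited table). MYC was thus above its control at 24 h and not distinguishable from it at the other times. Relative to the shared control, the 72 h value lay 0.80 below the 24 h value on the log2 scale, a difference that no deposited comparison tests.

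The paralogs were scarce. MYCN, known from neuroblastoma, had 0.661 FPKM in the control and 0.510 FPKM with PDP at 3 h, where it was not tested. It had 1.25 against 0.687 FPKM at 24 h (log2 fold change 0.87, SE 0.48, q = 0.0721 in the authors' deposited table) and 1.19 against 0.641 FPKM at 72 h (0.90, SE 0.50, q = 0.0444 in the authors' deposited table). The 24 h and 72 h changes of MYCN thus differed by 0.03 on the log2 scale although only the second was called. MYCL, the family member first found in lung cancer, had 1.68 FPKM against 2.05 FPKM at 3 h (log2 fold change -0.28, SE 0.67). It rose to 5.56 FPKM at 24 h, against 2.12 (1.39, SE 0.58, q = 0.0184 in the authors' deposited table), and reached 8.49 FPKM at 72 h, against 1.98 (2.10, SE 0.58, q = 0.000393 in the authors' deposited table). In the control MYC had 99.9 times the summed FPKM of MYCL and MYCN, and with PDP 124, 62.3 and 23.5 times at 3 h, 24 h and 72 h. Even after the rise of both paralogs, MYC was by far the main family transcript.

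PVT1 was higher with PDP at 3 h and 72 h and had a smaller, uncalled value at 24 h. At 3 h the control had 6.73 FPKM and the PDP cells 36.6 FPKM, 2.44 higher on the log2 scale (SE 0.51, q = 0.0434 in the authors' deposited table). At 24 h it had 9.99 against 6.99 FPKM, a log2 fold change of 0.51 with an implied SE of 6.05 (q = 0.622 in the authors' deposited table). That SE rests on a statistic of 0.0852 and does not match the p-value of the authors' deposited test (0.390). At 72 h the control had 6.52 FPKM and the PDP cells 27.8 FPKM, 2.09 higher on the log2 scale (SE 0.55, q = 0.000393 in the authors' deposited table). Its course differed from that of MYC at 3 h and 72 h, when PVT1 was called higher and MYC was not called. At 24 h the log2 fold change of PVT1 (0.51, not called) was close to that of MYC (0.60, called higher). MYC had 40.2 times the FPKM of PVT1 in the control, and with PDP 7.44 times at 3 h, 42.5 times at 24 h and 8.17 times at 72 h. The pooled values cannot show whether 1 library carried the PVT1 increase at 3 h or at 72 h.

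The PVT1 value may depend on how fragments were shared with another entry. The tables place 9 other entries in the PVT1 locus, and PVT1_1 was the 1 of them with FPKM of at least 1 in the control. PVT1_1 had 9.92 FPKM in the control of the 3 h table and is listed at 0 with PDP. It had 0.708 against 10.3 FPKM at 24 h and 3.45 against 9.61 FPKM at 72 h, and was not called at any time (implied SE 19.0 at 24 h and 4.89 at 72 h). It thus lay below its control in all 3 tables, and PVT1 above; how the authors' counting split fragments between them was not tested. When the FPKM of both entries are added, the log2 change is 1.14 at 3 h, -0.69 at 24 h and 0.95 at 72 h. The size at 3 h and 72 h and the sign at 24 h thus differ from those of PVT1 alone. FPKM is per length, so this sum is not a count of fragments, and what another split would give was not tested. The small nuclear RNA pseudogene RNU1-106P of the same locus is listed at 0 in the control and had 22.2 FPKM at 72 h, without a test. The microRNA genes MIR1205, MIR1206 and MIR1207 of the locus are listed at 0 throughout, in libraries made from poly(A) RNA.

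Around both genes the neighbourhood was almost silent. Of 28 other entries within 1 Mb of MYC or PVT1, 22 are listed at 0 in every condition, and PVT1_1 and RNU1-106P were the 2 that reached 1 FPKM in any condition. CASC11, a noncoding gene next to MYC, had 0.0733 FPKM in the control and 0.105, 0.132 and 0.175 FPKM with PDP at 3 h, 24 h and 72 h, and was not tested.

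**Figure D2:**
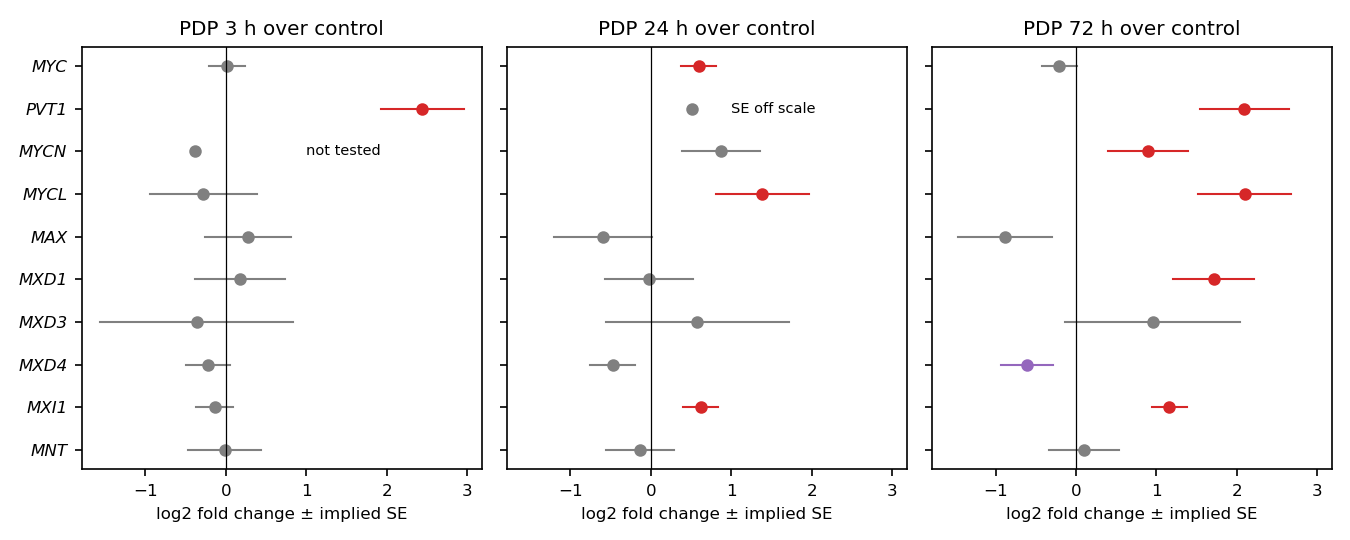
Log2 fold change of PDP over control (x axis) for the 10 genes in each table, with bars of 1 implied SE; red points were called higher, purple lower and grey were not called. MYCL, MYCN and MXI1 lie to the right of 0 at both 24 h and 72 h, MXD1 joins them at 72 h, and MAX and MXD4 lie to the left at both those times; the SE of PVT1 at 24 h (6.05) is too wide to draw.

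MAX, the obligate partner, lay below its control at both later times without being called. It had 91.6 against 75.6 FPKM at 3 h (log2 fold change 0.28, SE 0.53). It had 51.9 against 78.5 FPKM at 24 h (-0.60, SE 0.61, q = 0.324 in the authors' deposited table) and 39.7 against 73.2 FPKM at 72 h (-0.88, SE 0.59, q = 0.0823 in the authors' deposited table). The implied SE of MAX was more than that of MYC at each time. The tables place 8 other entries in the MAX locus, among them FNTB, a farnesyltransferase subunit. FNTB was called lower at 72 h, with 2.71 FPKM against 9.35 in the control (-1.79 on the log2 scale, SE 0.97, q = 0.00929 in the authors' deposited table). CHURC1 of the same locus had 30.3 against 41.1 FPKM at 72 h and RAB15 had 12.0 against 6.56 FPKM, neither called. Genes of that locus thus lay on both sides of their controls at 72 h, and FNTB alone was called.

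Among the MAX-binding repressors, MXI1 rose at both later times. This gene, which hypoxia is known to induce, had 21.6 against 23.8 FPKM at 3 h (log2 fold change -0.14, SE 0.23). It rose to 37.9 FPKM at 24 h, against 24.7 (0.62, SE 0.22), and to 51.4 FPKM at 72 h, against 23.0 (1.16, SE 0.22), with q = 0.000908 and q = 0.000393 in the authors' deposited tables. The later change exceeded the earlier by 0.54 on the log2 scale, which was not tested. MXD1, a repressor known to rise when cells differentiate, moved late. It had 2.87 against 2.54 FPKM at 3 h and 2.60 against 2.64 FPKM at 24 h, then rose to 8.07 FPKM at 72 h, against 2.46 (1.71, SE 0.50, q = 0.000393 in the authors' deposited table). In the same locus the splicing gene SNRNP27 had 50.6 against 46.9 FPKM at 72 h and was not called.

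MXD3 and MXD4 both lay below their controls at 3 h, neither called. At 24 h and 72 h MXD3 lay above its control, without being called, and MXD4 below. MXD3, the family member known to be expressed in S phase, had 7.26 against 9.34 FPKM at 3 h, 14.4 against 9.69 FPKM at 24 h and 17.5 against 9.05 FPKM at 72 h. Its log2 fold change of 0.95 at 72 h had an SE of 1.09 and was not called (q = 0.354 in the authors' deposited table). In its locus PRELID1, a mitochondrial lipid transfer gene, had 218 against 194 FPKM at 72 h and RAB24 had 33.0 against 29.8 FPKM, neither called. MXD4 had 22.5 against 26.2 FPKM at 3 h, 19.6 against 27.2 FPKM at 24 h (log2 fold change -0.47, SE 0.28, q = 0.0614 in the authors' deposited table) and 16.7 against 25.4 FPKM at 72 h. Its log2 fold change at 72 h was -0.61 (SE 0.32, q = 0.0238 in the authors' deposited table). MXD4 was the 1 gene of the 10 called lower. MNT, a broadly expressed MAX partner, had 13.7 against 13.9 FPKM, 13.1 against 14.4 FPKM and 14.4 against 13.4 FPKM at the 3 times, with log2 fold changes of -0.02, -0.14 and 0.10 and SEs from 0.42 to 0.45. Equal FPKM sums in both conditions would shift every log2 fold change by 0.05, 0.17 and -0.10 at 3 h, 24 h and 72 h. This or centring on the median turns the sign of MNT at all 3 times and of MXD1 at 24 h, all uncalled values, and of no other member.

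The summed FPKM of the repressor genes stood furthest from the control at 72 h, as did the shares of MXI1 and MXD4 in it. These sums and shares have no replicate error, include genes that were not called, and were not tested. MXD1, MXD3, MXD4, MXI1 and MNT together had 75.8 FPKM in the control and 68.0 FPKM with PDP at 3 h, 87.7 against 78.7 FPKM at 24 h and 108 against 73.4 FPKM at 72 h. MXI1 made up 31.4% of that sum in the control, 43.3% with PDP at 24 h and 47.6% at 72 h. MXD4 went the other way, from 34.6% in the control to 22.4% at 24 h and 15.4% at 72 h with PDP, so that MXI1 took the place of MXD4 as the most abundant repressor transcript. MXD1 went from 3.35% to 7.47% between the control and PDP at 72 h.

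Set against MYC, the repressor sum was lowest at 24 h and highest at 72 h. The ratio of their summed FPKM to that of MYC was 0.280 in the control and 0.249, 0.207 and 0.475 with PDP at 3 h, 24 h and 72 h. MYC had 3.58 times the FPKM of MAX in the control and 2.98, 8.19 and 5.73 times with PDP at the same times, and the repressor sum over MAX went from 1.00 in the control to 0.742, 1.69 and 2.72. These ratios compare transcripts per length within a condition, have no replicate error and were not tested, and those with MAX rest on a gene that was never called.

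**Figure D3:**
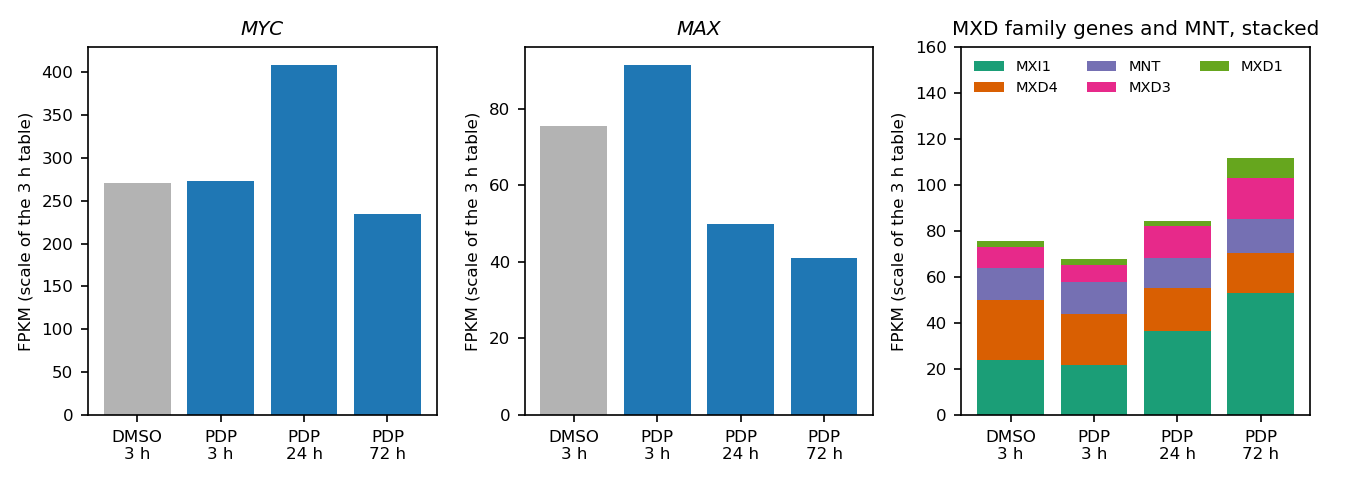
FPKM of MYC, of MAX and of the 5 repressor genes stacked (y axes, from 0) in DMSO at 3 h and PDP at 3 h, 24 h and 72 h, with each table brought to the scale of the 3 h table; bars are single pooled values without error. MYC peaks at 24 h at 409 FPKM on this scale, MAX goes from 75.6 to 41.0 FPKM, and the MXI1 part of the stack grows from 23.8 to 53.1 FPKM.

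The genes whose course was most like that of MYC were found by the Euclidean distance between the 3 log2 fold changes, over 11002 genes with at least 5 FPKM in 1 or more conditions. The 5 nearest were PTP4A3 (distance 0.0147), NATD1 (0.0640), PAQR4 (0.0842), RN7SKP80 (0.0858) and VDR (0.0880). PTP4A3, a phosphatase gene, had 6.52 FPKM in the control and log2 fold changes of 0.01, 0.61 and -0.21. PTP4A3, NATD1 and VDR were called higher at 24 h and not at the other times, like MYC, which their choice by these fold changes favours. The 5 distances were below the implied SE of MYC at each time (0.21 to 0.22), so their order says little. No gene came as close to PVT1: its nearest were RP11-465B22.3 (1.16), CDC37L1-AS1 (1.23), RP11-225B17.2 (1.32), CROCCP3 (1.33) and SAMD1 (1.51). SAMD1, also chosen by these values, was called at 3 h and 72 h and not at 24 h, as PVT1 was. Its log2 fold changes were 2.22, 0.10 and 0.66.

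The wider network includes MGA, a large MAX partner that represses, and the MLX branch, which senses glucose. The list labelled other network members held MGA, MLX, MLXIP and MLXIPL, and beside these the E-box factors USF1 and USF2. Of these 6 genes, all tested, 1 was called higher and 1 lower at 24 h, and 2 higher and 2 lower at 72 h. Each count is 16.7% of the list at 24 h, against 9.21% and 8.29% of all tested genes, and 33.3% at 72 h, against 19% and 12.8%, so with so few genes a call or a pair of calls sets the share. MGA fell to 11.4 FPKM at 24 h, against 18.3, and to 6.16 FPKM at 72 h, against 17.0 (-1.47 on the log2 scale, SE 0.36). MLXIPL, also known as ChREBP, rose from 8.11 to 15.3 FPKM at 24 h, and at 72 h MLXIP rose from 22.8 to 35.4 FPKM. The E-box factors USF2 and USF1 were called in opposite directions at 72 h (0.48 and -0.42 on the log2 scale).

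Genes that MYC is known to activate were called lower more often than higher at 24 h, when MYC was called higher. Of 32 tested, 8 were called lower (25%, against 8.29% of all tested genes) and 1 higher (3.1%, against 9.21%) at 24 h. Their median log2 fold change was -0.27 against -0.03 over all expressed genes. RRS1, a ribosome assembly factor, fell to 21.5 FPKM against 51.2 (-1.25, SE 0.21), and the nucleolar genes NOP16 and MRTO4 had log2 fold changes of -0.84 and -0.81. CDC25A, a cell cycle phosphatase, fell to 35.0 FPKM against 56.5. At 72 h 8 were called lower (25%, against 12.8%) and 6 higher (18.8%, against 19%), with a median of -0.0012 against 0.11. LDHA, lactate dehydrogenase A and also a hypoxia gene, rose to 2538 FPKM against 1059, and CCND2, cyclin D2, to 43.8 FPKM against 21.5. RRS1 was again lower, with 9.82 FPKM against 47.7 (-2.28, SE 0.22), as was NOP16 (-0.99).

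Genes that MYC is known to repress were called higher more often than lower at 72 h. Of 13 tested out of 14 listed, 3 were called higher (23.1%, against 9.21% of all tested genes) and 2 lower (15.4%, against 8.29%) at 24 h, with a median of 0.15. At 72 h 7 were higher (53.8%, against 19%) and 2 lower (15.4%, against 12.8%), with a median of 1.12 against 0.11 over all expressed genes. The 2 called lower at 72 h were GAS1 and CEBPA (-1.73 and -0.54 on the log2 scale). GADD45B, a stress-induced gene, rose to 98.8 FPKM at 72 h, against 11.3 (3.13, SE 0.32), and NDRG1, which hypoxia also induces, to 163 FPKM against 23.5 (2.79, SE 0.30). The CDK inhibitor genes CDKN2B and CDKN1C were also higher, with log2 fold changes of 1.85 (SE 0.98) and 1.73 (SE 0.36). At 24 h NDRG1, CDKN1C and CDKN1A rose by 1.15, 0.99 and 0.66, while GAS1 fell to 10.2 FPKM against 18.9. At 72 h MYC itself was not called.

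Factors that work with MYC or act on its protein or promoter were called lower more often than higher at 24 h. Of 17 cofactor genes none was higher and 4 were lower at 24 h (23.5%, against 8.29% of all tested genes; median -0.28): HCFC1, with 27.7 FPKM against 56.9, and WDR5, PAF1 and SMARCB1, with log2 fold changes of -0.53, -0.57 and -0.42. At 72 h 4 cofactor genes were lower (23.5%, against 12.8%) and 2 higher (11.8%, against 19%), with a median of 0.01: BPTF fell by 0.96 and WDR5 by 0.64, while ZBTB17, which encodes the MYC partner MIZ1, rose to 18.0 FPKM against 8.74 and KAT2A to 64.0 FPKM against 39.1. Of 17 genes of MYC protein turnover none was higher and 5 were lower at 24 h (29.4%, against 8.29%; median -0.30), with FBXO28, PPP2CA, USP36 and AURKA falling by 0.71, 0.69, 0.60 and 0.57. At 72 h 2 of them were lower (11.8%, against 12.8%) and 3 higher (17.6%, against 19%), close to the shares of all tested genes (median -0.15): FBXO28 and TRIM32 fell by 1.01 and 0.93, and USP28, a deubiquitinase that stabilises MYC, rose to 48.6 FPKM against 28.1 and SET to 494 FPKM against 329.

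Of 13 genes for proteins known to bind the MYC promoter, none was higher and 4 were lower at 24 h (30.8%, against 8.29% of all tested genes; median -0.31). CTCF fell to 19.0 FPKM against 36.0, DDX5, a helicase known to unfold the MYC quadruplex, to 237 FPKM against 408, and PUF60 and CNBP had log2 fold changes of -0.57 and -0.45. At 72 h CTCF and PUF60 fell by 0.75 and 0.40 while CNBP rose to 514 FPKM against 379 (15.4% lower, against 12.8%, and 7.69% higher, against 19%; median of the list 0.05). NCL, NPM1 and NME2 of this list also stand in the list of activated targets. Of 11 corepressor genes that MXD proteins and MNT recruit, none was called at 24 h, where RBBP7 had 309 against 319 FPKM and RBBP4 had 191 against 249 FPKM, and at 72 h HDAC1 rose to 339 FPKM against 216 and RBBP4 fell to 163 FPKM against 233. Each of these is 9.09% of that list, below the 19% and 12.8% of all tested genes. Their median was -0.27 at 24 h and 0.26 at 72 h. Equal FPKM sums, which shift all genes alike, would bring the 24 h medians nearer to 0, to -0.11 for the activated targets, -0.12 for the cofactors, -0.13 for turnover, -0.14 for the promoter binders and -0.10 for the corepressors. No gene of these 7 lists was called at 3 h, where 17 genes in all were called, and the list medians there lay between -0.07 and 0.03.

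**Figure D4:**
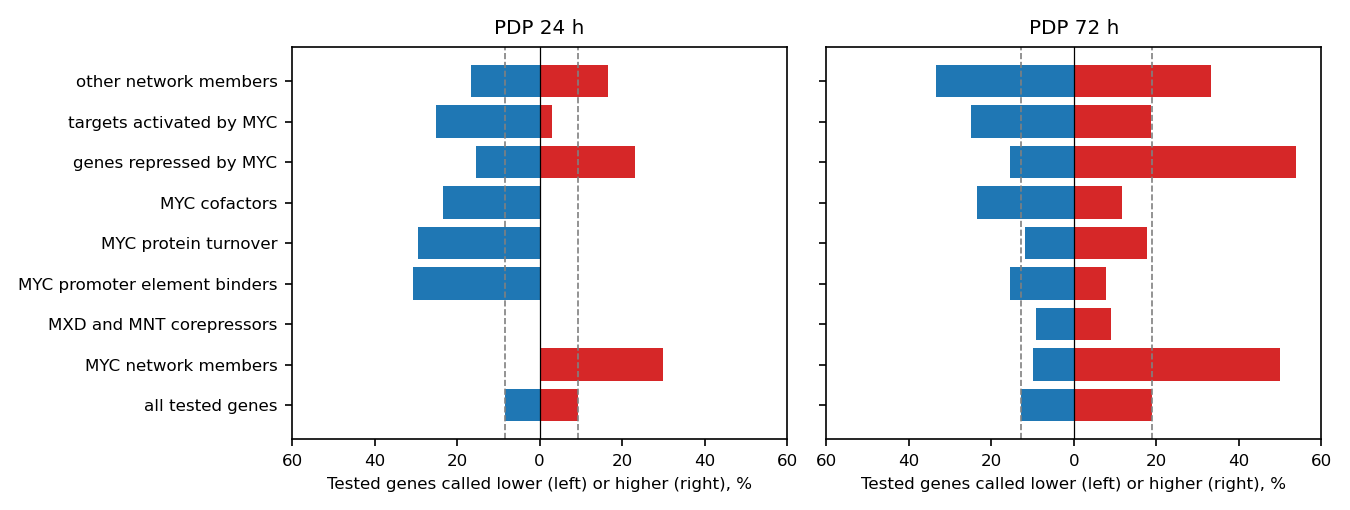
Share of tested genes called higher (red, right) or lower (blue, left) with PDP at 24 h and 72 h, in percent, for each gene list, for the 10 network genes and for all tested genes (dashed lines, 9.21% higher and 8.29% lower at 24 h, 19% and 12.8% at 72 h). Genes repressed by MYC reach 53.8% higher at 72 h, and targets activated by MYC reach 25% lower at both times.

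In the pull-down, peaks were frequent around PVT1 and none was centred in the MYC locus. The authors' list held 51446 peaks, each found in both replicates, with a median width of 407 bases and a score averaged over the replicates whose unit is not stated (median 10.96, quartiles 9.12 and 14.2). The region from 100 kb before MYC to 100 kb after PVT1 (GRCh38, chromosome 8, 127635434 to 128201253) held 19 peaks, or 33.6 per Mb (95% exact Poisson interval 20.2 to 52.4, counting error only). The genome as a whole had 16.7 per Mb and chromosome 8 had 13.6 per Mb. Of 256 windows of that size laid end to end on the chromosome, 16 held at least 19 peaks, the median window 7 and the fullest 34, so the region was peak-rich without being extreme.

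Most of the 19 peaks lay in PVT1, which also takes up most of the region. The MYC locus (127735434 to 127741434) held none, where the genome average would give 0.09996, so a count of 0 says little for so short a locus. Its nearest peaks lay 8.72 kb after it (127749891 to 127750413, score 18.3) and 8.79 kb before it (127726347 to 127726951, score 9.37). A second peak lay in the gap of 53.1 kb between the genes (127772095 to 127772497, score 18.6). The PVT1 locus (127794533 to 128101253) held 13 peaks, 42.4 per Mb (22.6 to 72.5), against 5.11 at the genome average. Of 4323 loci of at least 100 kb, 7.29% had as high a density, and their median was 16.8 per Mb. The highest PVT1 peak (128040852 to 128041254) had a score of 38.2, at percentile 99.0 of all peaks, and the lowest 7.98. Neighbouring peaks in PVT1 were 4.34 to 47.3 kb apart, with a median of 12.7 kb. Scores in the region had a median of 11.3, close to that of all peaks, and 10 of the 19 were at or above the median of all peaks. The spread was wide: PVT1 peaks of 38.2, 22.3 and 20.9 stood at percentiles 99.0, 93.5 and 92.0 of all peaks. Those of 8.72 and 7.98 stood at percentiles 18.5 and 7.26. Whether high peaks were more frequent there than elsewhere was not tested.

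**Figure D5:**
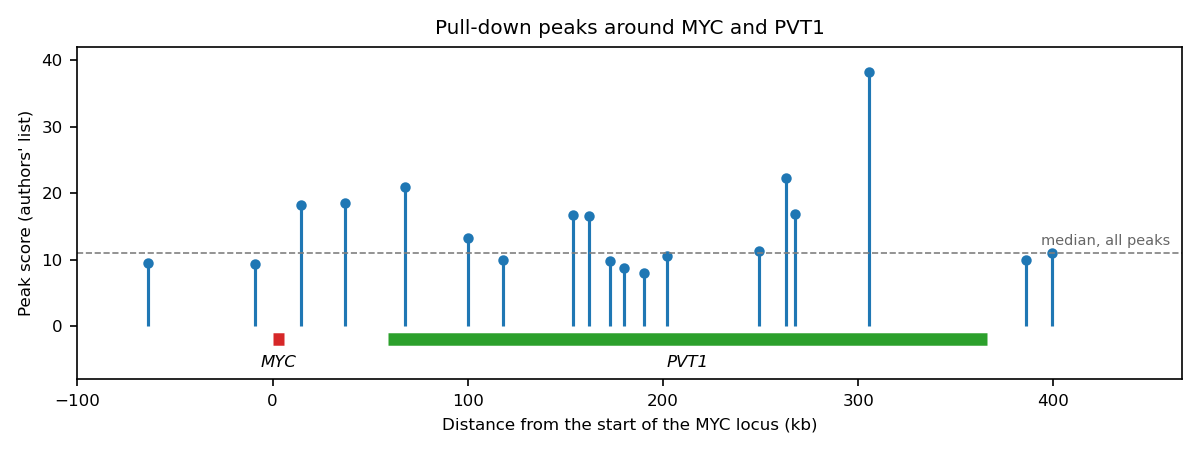
Score (y axis) of the 19 pull-down peaks from 100 kb before MYC to 100 kb after PVT1 against distance from the start of the MYC locus in kb (x axis); bars below 0 mark the loci and the dashed line is the median score of all peaks (10.96). No peak stands over MYC, 13 stand over PVT1, and the highest has a score of 38.2.

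All 10 loci had a peak within 10 kb, against 64.1% of all gene loci, and 6 had a peak inside, against 48.7%. Loci here are those of the tables, which join overlapping genes, so a peak inside a locus may lie outside the member gene itself. Long loci also have more room for peaks. Outside PVT1 the other 9 loci held 7 peaks in 400 kb, where the genome average would give 6.67. MAX had 3 peaks in 188 kb (scores 9.51 to 10.9), an average density for a locus of its length. The highest peak among the repressor genes, of score 27.2 (chromosome 2, 69902090 to 69902596), lay inside the joined locus of MXD1. Another of 13.6 lay 3.36 kb before that locus. Both lay before the promoter window of MXD1 (69914859 to 69915158, plus strand), so upstream of that annotated start. MXD4 had peaks of 26.0 and 11.2 at 3.41 and 4.597 kb before its locus by coordinate (chromosome 4, 2243821 to 2244223 and 2242634 to 2243036). They lay on the side away from its annotated start, since MXD4 is on the minus strand. Both percentiles of the high peaks of MXD1 and MXD4, 96.6 and 96.0, put them among the upper scores of the list.

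The other members had 1 or 2 peaks each within 10 kb. MXD3 had a peak of score 19.7 at 0.523 kb past the end of its locus (chromosome 5, 177313079 to 177313481), on the side of its annotated start, since the gene is on the minus strand, and this was the peak nearest to any locus without one inside. MYCL had one of 12.3 at 2.53 kb past its locus (chromosome 1, 39904536 to 39905044), also on the side of its start. MXI1 had one of 14.0 inside its locus (chromosome 10, 110227275 to 110227745). MNT had one of 16.1 inside (chromosome 17, 2388883 to 2389552) and one of 8.76 at 6.69 kb before its locus by coordinate (2377122 to 2377617). The latter lay on the side away from its annotated start, since MNT is on the minus strand. MYCN had one of 7.29 inside its joined locus, at percentile 0.6998 of all peaks (chromosome 2, 15932663 to 15933073). Another of 9.21 lay 9.70 kb before that locus (15910499 to 15910901). Both lay before the promoter window of MYCN (15940300 to 15940599, plus strand), so upstream of that annotated start. Peaks were thus found near genes called higher, near MXD4, which was called lower, and near MAX, MXD3 and MNT, which were not called. The pull-down was of annealed genomic DNA and not of chromatin in cells treated with PDP.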

How the data were processed

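RNA of HEK 293T was captured as poly(A) RNA and made into stranded libraries, per the labels' protocols; whether counting used strand is not given in the sources used here. For the RNA the submitters' processing notes list HISAT2 2.0.5 and Cufflinks 2.2.1. The same notes list Bowtie2 2.2.9, HOMER 4.9.1, Picard, SAMtools 1.3.1 and Trim Galore 0.4.4, and the build GRCh38.p7, without roles or settings. Per the file headers, the authors deposited FPKM pooled over replicates, with a p-value and q-value from their test of PDP against control. The authors' deposited tables also hold a test statistic, a score used here only to obtain an implied SE, the size of log2 fold change over statistic. Each pull-down peak was in both replicate lists, and the authors deposited 1 mean score per peak. How the test estimated the spread is not stated, and the labels do not say whether replicates were separate cultures, so p-values may measure technical spread only. The smallest p-value in each deposited table is 5e-05, which is that of PVT1 at 3 h, of MYC and MXI1 at 24 h and of PVT1, MYCL, MXD1 and MXI1 at 72 h.

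Log2 fold changes were computed from the deposited FPKM. Peaks were placed by their centre, and locus starts were written 1-based. The members and gene lists were chosen with earlier results of these data known and are no independent support. Named genes were all members, up to 4 called genes per list and time by size of change (the 2 of highest FPKM where none was called), neighbours of at least 1 FPKM, the 5 nearest patterns and peaks within 10 kb. CASC11, the microRNA genes, GAS1 and CEBPA at 72 h, the peak between MYC and PVT1 and genes sharing a member's locus were added after their values were seen. The alternatives were other thresholds, a pseudocount, scalings, peak windows and flanks. The steps were tested on simulated data. Versions were Python 3.11.15, SciPy 1.17.1, NumPy 2.4.6, Matplotlib 3.10.9 and pandas 2.3.3.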

Additional observations from a re-analysis of the deposited data

How the results depend on the processing

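No paired analysis was possible because the tables hold 1 pooled value per condition, and for the same reason no replicate could be left out. With a q threshold of 0.01 the calls became 0 higher at 3 h (without PVT1), 2 higher at 24 h (without MYCL), and 4 higher (without MYCN) and 0 lower (without MXD4) at 72 h. PVT1 at 3 h has the smallest p-value and q-value of the authors' deposited 3 h table (5e-05 and 0.0434), so no gene there could pass 0.01 and its loss says nothing of PVT1. With a log2 change of at least 1 as well the calls became 1 higher at 24 h (MYCL alone), and 4 higher (without MYCN) and 0 lower (without MXD4) at 72 h. Adding PVT1_1 to PVT1, chosen after seeing the data, gave 1.14 at 3 h, -0.69 at 24 h and 0.95 at 72 h, which follows from the opposite course of the 2 entries. A pseudocount of 1, equal FPKM sums and centring on the median moved MYC and PVT1 by less than their implied SE. The repressor sum over MYC was also taken without the most abundant repressor gene of each condition. This was MXD4 in the control and with PDP at 3 h, and MXI1 with PDP at 24 h and 72 h, so different genes were summed. The ratio was 0.183 in the control and 0.167, 0.117 and 0.249 with PDP at 3 h, 24 h and 72 h, still lowest at 24 h and highest at 72 h. Peaks lay inside 6 loci, and within 5 kb of 9. With peaks above the median score alone the MYC to PVT1 region had 17.7 per Mb against 8.33 in the genome, and flanks of 0, 50 and 500 kb gave 41.0, 38.6 and 22.7 per Mb for all peaks. List medians changed sign in 12 of 84 alternative values, all where the median was at most 0.0523 in size and none at 24 h. At 24 h equal FPKM sums brought the medians of the 6 lists below 0 to between -0.14 and -0.07, the corepressor mean was -0.07 against a median of -0.27, and with a minimum of 5 FPKM the median of the repressed genes was 0.0020 against 0.15. Depth is unknown, so it sets no limit here that can be given as a number.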
